A study of Homo sapiens and Homo sapiens
Mus with 12 samples.

Results

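The 34 genes described here encode the machinery that brings proteins into mitochondria. They were taken by name: 9 subunits, receptors and helpers of the outer membrane TOM gate, 3 genes of the SAM complex, 7 of the intermembrane space relay with its small TIM chaperones, 2 of the TIM22 and 5 of the TIM23 translocase, 4 of the import motor, 2 of the matrix processing peptidase, and the insertase OXA1L and the assembly factor TIMMDC1. All 34 were listed among 21479 genes counted in cultured cells, and 33 among 26813 human genes counted in xenograft tumors. A filter on low counts left 33 of them for testing in cultured cells and 29 in tumors.

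The samples were UM-UC-3 cells, an established human bladder cancer line. The cells had been infected with lentiviral particles carrying GFP and either a non-silencing hairpin (shCtrl) or a hairpin against CDH11, an adhesion receptor of the cadherin family (sh#1 or sh#2), and GFP-positive cells were sorted, so that every group including the control carried a virus. The labels call the cultured shCtrl cells WT, and no clones are named. Cultured cells, grown for 24 h in plates, gave 3 libraries per group. For the tumors, these lines were placed with Matrigel under the skin of nude mice aged 5 weeks, which lack mature T cells but keep other immune cells, and tumors were collected after 4 weeks, 5 per group. The CDH11 knockdown (KD) groups are sh#1 and sh#2 together, n = 6 in culture and n = 10 in tumors. The labels do not say whether the cultured libraries came from separate cultures, and the p-values then measure the spread between these libraries only. No repeat infection is named for any hairpin, so no p-value here, in culture or in tumors, measures the spread between separately infected lines.

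Nearly all mitochondrial proteins are made in the cytosol and have to be threaded through the membranes in an unfolded state. Precursors are recognised by receptors on the surface (TOMM20, TOMM22, TOMM70) and pass the TOMM40 channel. Barrel proteins are then handed to SAM, small cysteine-rich proteins are trapped in the intermembrane space by CHCHD4, carriers with many membrane segments are escorted by small TIMs to TIM22, and precursors with an N-terminal presequence are pulled through TIM23 by the matrix motor and trimmed by the processing peptidase. Because respiratory chain subunits are among the passengers, and because TIMM21 and TIMMDC1 also take part in the assembly of respiratory complexes, these genes link import with energy metabolism. The question the comparison addresses is whether the transcripts of this machinery differed between CDH11 KD and shCtrl cells, in culture and in tumors.

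Library facts that bear on the values were as follows. Totals counted on genes ranged from 2273182 to 2777019 per cultured library and from 414849 to 1248977 human counts per tumor. CDH11 itself was close to the detection limit in culture, at 2 to 4 counts in shCtrl, 0 to 1 in sh#1 and 0 to 2 in sh#2, and had 5 to 32, 1 to 9 and 2 to 14 counts in the corresponding tumors. These counts are not scaled to depth. As a share of human counts, CDH11 in sh#2 tumor 2 (14 of 795034) lay above every shCtrl tumor but tumor 4 (32 of 1127806). KD therefore names the hairpin groups here and not a lower CDH11 level in each tumor. Of 6 epithelial markers, CDH1 and EPCAM were at 0 in every cultured library, KRT7 had 5 to 14 counts and KRT19 0 to 3, while KRT8 and KRT18 had at least 253. The 6 summed to 253 to 284 CPM (counts per 1000000 counts of the library, here with no composition factor) in shCtrl, 319 to 325 in sh#1 and 240 to 253 in sh#2. The 4 mesenchymal markers, led by VIM, summed to 2465 to 2636 CPM in shCtrl, 2411 to 2641 in sh#1 and 3659 to 4012 in sh#2, and CDH2, 1 of the 4, had a median of 43.2, 25.9 and 29.2 CPM in the same order. The part of these markers in the hairpin differences of the import genes was not tested. In cultured cells the TMM scaling factor, which corrects for composition, moved with the group, from 1.07 to 1.08 in shCtrl, 1.02 to 1.04 in sh#1 and 0.897 to 0.905 in sh#2. Without it, the median log2 fold change of all genes in cultured CDH11 KD cells shifted by -0.16. The barcode list placed the 5 shCtrl tumors in library mix 1, the 5 sh#1 tumors in mix 2 and the 5 sh#2 tumors in mix 3, so group and mix cannot be told apart. Mouse counts made up 10.4% to 30.02% of all counts per tumor, highest in sh#1 tumor 1, which also had the fewest human counts.

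In cultured CDH11 KD cells a part of the import genes changed, in both directions, while in CDH11 KD tumors none passed in edgeR and DESeq2 called 1, TOMM40. Of the 34 genes, 4 of 33 tested rose and 6 fell in cultured CDH11 KD cells (q under 0.05), or 12.1% and 18.2%, while 9.12% of all 9859 tested genes rose and 8.32% fell. The count of 10 became 6, 5 and 6 without shCtrl library 1, 2 and 3. It was 6 with the replicate number as a block and 13 in a fit of 3 groups with the hairpins averaged. The median log2 fold change was -0.06, against 0.00 over all genes. With sh#1, 6 rose and 3 fell, against 11.8% and 10.6% of all genes, and the median was 0.09. With sh#2, 3 rose and 12 fell, against 19.5% and 18.8% of all genes, and the median was -0.23. The comparisons of each hairpin share the shCtrl libraries. Directly compared, 9 import genes were higher in sh#1 than in sh#2 and 0 were lower in the main edgeR fit, against 11.2% and 13.5% of all genes. The median difference was 0.23. TOMM7 was called lower in sh#1 with the replicate block and without shCtrl library 1, sh#1 library 3 or sh#2 library 1. Without shCtrl library 1, TOMM20 was called lower too. At an unadjusted p under 0.05, 17 of the 33 differed between the hairpins, against 35.5% of all genes, and DESeq2 called 6, all of them higher in sh#1, against 15.6% of all genes in either direction. The 6 CDH11 KD libraries lay wholly above the 3 shCtrl libraries for 5 import genes and wholly below for 6, against 11.4% and 10.6% of all genes. The summed counts of the import genes took 0.258% to 0.272% of all counts in shCtrl libraries, 0.272% to 0.281% in sh#1 and 0.219% to 0.224% in sh#2. These shares hold no composition factor, unlike the fold changes above. The factor was lowest in sh#2 and dividing by it raises the sh#2 shares against shCtrl, so they show no fall by themselves.

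In tumors 0 of 29 tested import genes passed (q under 0.1) in CDH11 KD, sh#1 or sh#2 against shCtrl in edgeR. At an unadjusted p under 0.05 there were 5, 5 and 6 of 29, against 12.7%, 11.2% and 13.7% of all genes. DESeq2 called 1, 0 and 0, against 1.79%, 1.38% and 2.48% of all genes. Few of the 9184 genes tested passed at all, 0.697% as higher and 0.817% as lower for CDH11 KD, 0.773% and 0.708% for sh#1, and 1.36% and 1.32% for sh#2. Log2 fold changes were below 0 in 26 of the 29 genes for CDH11 KD, with a median of -0.16 against 0.01 over all genes. These values share the 5 shCtrl tumors, and the direction of the set was not tested. Without shCtrl tumor 5, which had the fewest counts of its group, TOMM40, TIMM50, PMPCA and TIMMDC1 were past the threshold as lower in CDH11 KD. For sh#2, TIMM22, GRPEL1 and TIMMDC1 were past it as lower without the same tumor. GRPEL1 was also past it for sh#2 without sh#2 tumor 3 or with the mouse to human ratio as a covariate. TIMM22 was past it for sh#2 with at least 10 counts in every library. The median coefficient of variation of the import genes within a group was 14.6% to 21.3% in tumors and 9.22% to 10.2% in culture.

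The promoters of 6 genes are shown, those that passed the test with each hairpin separately in cultured cells and so carry the result there. TIMM21, TIMM22 and TIMMDC1 were lower with both hairpins, and TOMM20, TOMM7 and GRPEL2 were higher with both. The sh#1 call of TIMM22 held in 11 of 14 alternatives, and was lost with DESeq2 (q = 0.0787) and without shCtrl library 2 or 3. The sequences are the RefSeq windows on GRCh38.p14, from 250 bases before to 30 bases after the annotated start, written 5′ to 3′ along the gene's strand. Capitals mark letters that match 1 of 4 short motifs searched on both strands: GCGCATGC, a core of the NRF1 site, CCGGAAG, an ETS family core bound by GABPA, AAGATGGC, a YY1 core, and ACGTG, the core of the hypoxia response element. NRF1, GABPA and YY1 are regulators known for nuclear genes of mitochondria. The windows lie at chr18:74148273-74148552 (plus) for TIMM21, chr17:996879-997158 (plus) for TIMM22, chr3:119498297-119498576 (plus) for TIMMDC1, chr1:235128808-235129087 (minus) for TOMM20, chr7:22822820-22823099 (minus) for TOMM7 and chr5:149345249-149345528 (plus) for GRPEL2.
TIMM21: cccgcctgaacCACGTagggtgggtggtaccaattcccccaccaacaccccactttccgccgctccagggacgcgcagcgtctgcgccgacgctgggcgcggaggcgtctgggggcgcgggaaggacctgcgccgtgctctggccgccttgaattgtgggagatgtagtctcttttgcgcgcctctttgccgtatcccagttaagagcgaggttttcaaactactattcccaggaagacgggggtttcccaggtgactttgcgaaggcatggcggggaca
TIMM22: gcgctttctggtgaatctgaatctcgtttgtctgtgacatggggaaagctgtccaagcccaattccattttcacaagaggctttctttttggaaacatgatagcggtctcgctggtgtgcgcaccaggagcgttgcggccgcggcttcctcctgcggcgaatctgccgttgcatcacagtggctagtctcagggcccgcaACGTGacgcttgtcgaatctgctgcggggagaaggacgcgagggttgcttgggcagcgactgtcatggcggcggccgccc
TIMMDC1: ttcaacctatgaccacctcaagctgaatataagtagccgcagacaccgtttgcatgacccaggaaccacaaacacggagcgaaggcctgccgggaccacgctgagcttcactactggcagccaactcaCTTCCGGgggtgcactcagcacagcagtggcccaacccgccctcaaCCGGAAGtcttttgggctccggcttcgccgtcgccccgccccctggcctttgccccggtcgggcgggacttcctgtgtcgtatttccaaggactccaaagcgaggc
TOMM20: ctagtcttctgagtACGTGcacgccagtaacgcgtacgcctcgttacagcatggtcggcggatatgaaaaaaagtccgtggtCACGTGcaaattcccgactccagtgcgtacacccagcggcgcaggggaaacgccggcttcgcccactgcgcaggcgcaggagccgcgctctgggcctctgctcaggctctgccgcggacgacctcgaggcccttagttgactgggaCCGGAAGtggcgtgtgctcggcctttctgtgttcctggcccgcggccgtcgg
TOMM7: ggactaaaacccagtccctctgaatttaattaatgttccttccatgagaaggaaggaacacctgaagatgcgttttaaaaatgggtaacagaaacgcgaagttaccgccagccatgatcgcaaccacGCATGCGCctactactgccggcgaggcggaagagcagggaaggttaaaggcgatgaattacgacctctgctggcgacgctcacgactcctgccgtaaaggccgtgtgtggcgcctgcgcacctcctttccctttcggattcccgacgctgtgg
GRPEL2: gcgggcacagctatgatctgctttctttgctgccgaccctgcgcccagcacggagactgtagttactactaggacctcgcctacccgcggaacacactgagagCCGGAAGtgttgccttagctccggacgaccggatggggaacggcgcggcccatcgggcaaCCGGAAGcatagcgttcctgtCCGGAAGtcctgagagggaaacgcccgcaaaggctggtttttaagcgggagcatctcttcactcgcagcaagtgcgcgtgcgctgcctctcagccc

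The capitals fall differently in the 6 windows. GRPEL2 had 3 matches to CCGGAAG and TIMMDC1 had 2, TOMM20 had 1 at 22 bases before the start, and TIMM21, TIMM22 and TOMM7 had none. TOMM7 had the 1 match to GCGCATGC in this group. TIMM21 and TIMM22 each had 1 match to ACGTG, and TOMM20 had 3, of which a pair share 4 bases because CACGTG reads as ACGTG on each strand. CCGGAAG and ACGTG thus each occurred both in genes that were lower and in genes that were higher. Over the 31 import genes with a window in the table, CCGGAAG was found in 15 (48.4%), against 9.9% of 35116 promoters of genes of every type. GCGCATGC was found in 16.1% against 3.0%, AAGATGGC in 9.7% against 2.4% and ACGTG in 29.0% against 20.2%. The median GC content was 64.3% in the import genes and 58.2% in all promoters, and a match describes the letters only.

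The presequence translocase TIM23 opens the account because it holds TIMM21, the subunit that docks TIM23 to the TOM side and escorts respiratory chain subunits to their assembly sites. The study chose TIMM21 for follow-up from these same samples, so its direction here is not independent evidence. TIMM21 (ENSG00000075336) lies on chromosome 18 from 74148523 to 74160531 on the plus strand of hg38, and its canonical transcript has 6 exons. The study's RT-qPCR primers for it are shown to place which part of the transcript that assay reads. The forward primer matches coding exon 2 at chr18:74155149-74155171, and the reverse primer spans the junction of coding exons 3 and 4, with its outer ends at 74155393 and 74158023 on the opposite strand. The product is 167 bases long, and 3 of 6 annotated TIMM21 transcripts hold both sites.
TIMM21 forward primer: agaagccggaagagattttacct
TIMM21 reverse primer: caccgatcacctcaggatgtg

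In cultured cells TIMM21 was measured at 20.9, 18.5 and 17.9 TMM-normalized CPM (counts scaled to a library of 1000000) in the shCtrl libraries. It was at 7.38, 11.7 and 12.3 CPM in sh#1 and at 8.87, 6.69 and 5.36 CPM in sh#2. The 6 CDH11 KD libraries lay below all 3 shCtrl libraries. These levels rest on few reads, 45 to 53 counts in shCtrl, 18 to 35 in sh#1 and 11 to 19 in sh#2. In CDH11 KD cells the mean was 45.7% of that in shCtrl. In bulk RNA, fewer cells with a transcript and less of it per cell cannot be told apart. The log2 fold change was -1.10 (SE 0.23, q = 0.0031, by the quasi-likelihood test of edgeR, adjusted over 9859 genes by Benjamini-Hochberg), the largest fall among the 33 genes tested. With the hairpins apart, it was -0.85 (SE 0.22, q = 0.00327) for sh#1 and -1.44 (SE 0.25, q = 5.75e-06) for sh#2, and the difference between hairpins, 0.59 (SE 0.28), missed the threshold at q = 0.122.

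In the tumors the fall of TIMM21 was not seen. Its level was at 31.3, 29.2, 22.8, 31.1 and 16.9 CPM in the shCtrl tumors, at 11.1, 20.3, 31.8, 19.6 and 26.3 CPM in sh#1 and at 21.3, 36.3, 36.4, 32.0 and 34.4 CPM in sh#2. The groups overlapped, and the lowest value was that of sh#1 tumor 1, from 4 counts. CDH11 KD tumors differed from shCtrl by 0.04 on the log2 scale (SE 0.20, q = 0.965, edgeR), with -0.22 (SE 0.23) for sh#1 and 0.26 (SE 0.22) for sh#2, and its sign turned without shCtrl tumor 3 or 5 or sh#2 tumor 2 or 3, with values of -0.07 to 0.10 over all tumors left out in turn. Mouse Timm21 had 7 counts over the 15 tumors against 356 human counts, or 1.93% of both. In a joint fit of both systems (limma voom with quality weights, q under 0.1), the CDH11 KD effect on TIMM21 was higher in tumors than in culture by 1.12 on the log2 scale (SE 0.30, q = 0.0147). Cultured and tumor libraries also differed in sequencer, mapping program and in what the libraries contained, and the part of this in the difference was not tested.

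Of the other TIM23 subunits, TIMM23 differed between the hairpins. This gene, which encodes the channel, was at 60.6, 78.3 and 67.5 CPM in cultured shCtrl, 75.0, 69.98 and 85.6 CPM in sh#1 and 46.2, 54.5 and 48.7 CPM in sh#2. Only the sh#2 libraries lay below shCtrl. Its log2 fold change was 0.17 (SE 0.11, q = 0.300) with sh#1 and -0.46 (SE 0.12, q = 0.00192) with sh#2, and the hairpins differed by 0.63 (SE 0.12, q = 5.12e-05, edgeR). TIMM23 shares sequence with TIMM23B, which had 38 counts in all tumors together, so reads of the pair may have been split. TIMM17A, a channel partner, and TIMM50, the receptor that receives presequences, fell with sh#2 as well, by 0.45 and 0.31 on the log2 scale (q = 0.0361 and 0.0131), and had values of -0.28 and -0.15 with sh#1 that missed the threshold, as did the difference between hairpins (q = 0.537 and 0.278). The sh#2 call held in 8 of 14 alternatives for TIMM17A, lost with DESeq2 and without shCtrl library 2 or 3 or any single sh#2 library, and in 11 of 14 for TIMM50, lost with DESeq2 and without shCtrl library 2 or sh#2 library 1. In the CDH11 KD fit of 2 groups in culture, TIMM21 was the 1 of 5 TIM23 genes to fall, against 8.32% of all genes. There 0 rose, against 9.12%. In the fit of 3 groups with the hairpins averaged, TIMM17A and TIMM50 were called lower as well. With sh#2 alone 4 of 5 fell, against 18.8% of all genes. In CDH11 KD tumors 0 of 5 passed in edgeR, where 0.697% of all genes were higher and 0.817% lower. There 0 of 5 had an unadjusted p under 0.05, against 12.7% of all genes, and DESeq2 called 0, against 1.79%.

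**Figure D1:**
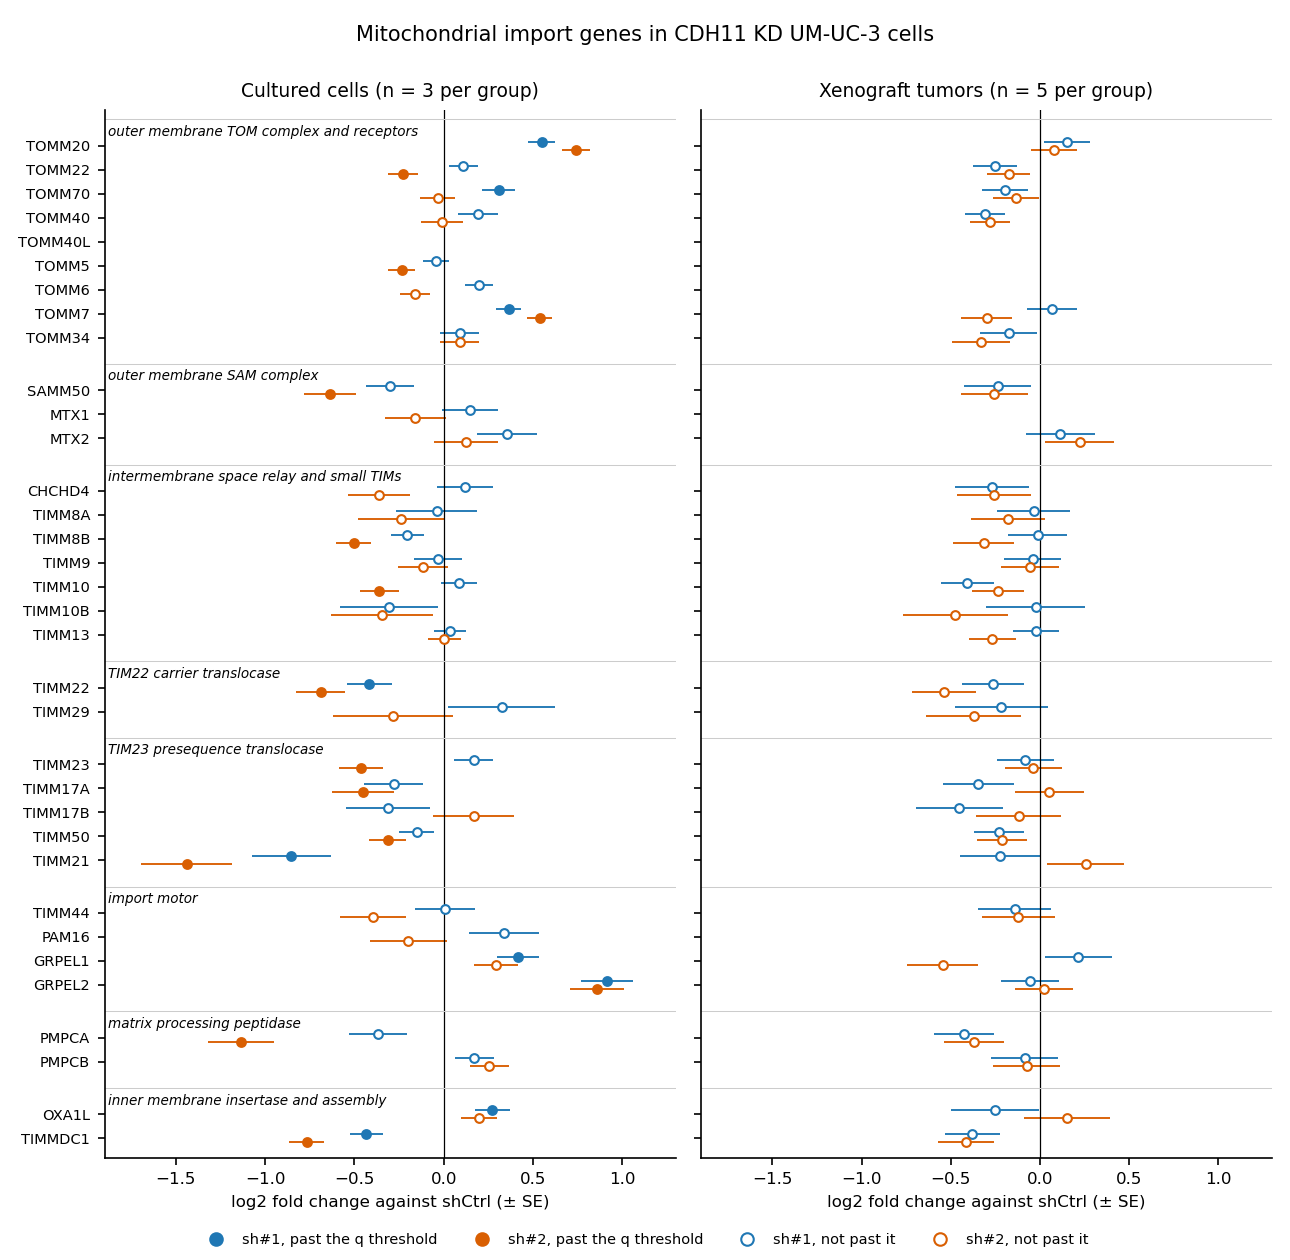
Log2 fold changes against shCtrl (± SE) of each import gene, grouped by role, for sh#1 and sh#2 in cultured cells (left, n = 3 per group) and xenograft tumors (right, n = 5 per group). Filled points passed the q threshold of the edgeR test (0.05 in culture, 0.1 in tumors), and genes without a point were not tested. TIMM21 lies at -0.85 and -1.44 in culture, where 9 genes passed with sh#1 and 15 with sh#2, and no point is filled in the tumors.

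Of the TOM gate, TOMM20 and TOMM7 rose in culture. TOMM20, the receptor that first binds presequences, was at 125, 136 and 125 CPM in cultured shCtrl libraries, 196, 184 and 186 CPM in sh#1 and 210, 210 and 225 CPM in sh#2, without overlap between CDH11 KD and shCtrl. Its log2 fold change was 0.65 (SE 0.09, q = 0.000143) with both hairpins together, 0.55 with sh#1 and 0.74 with sh#2, and the hairpins differed by -0.19 (q = 0.0515, edgeR), just short of the threshold. TOMM7, a small subunit that tunes the stability of the gate and takes part in PINK1 handling, was at 339, 379 and 382 CPM in shCtrl, 425, 469 and 521 CPM in sh#1 and 483, 563 and 551 CPM in sh#2. Here too the 6 CDH11 KD libraries lay above shCtrl, with a log2 fold change of 0.45 (SE 0.10, q = 0.00417). Without the composition factor, CDH11 KD means were 140% of shCtrl for TOMM20 and 122% for TOMM7, against 157% and 137% with it.

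The other TOM genes passed against shCtrl with 1 hairpin or in neither comparison. TOMM70, the receptor for carriers and other precursors with internal signals, was higher with sh#1 (0.31, SE 0.09, q = 0.00996) and at -0.03 with sh#2. TOMM22, the central receptor, had 0.11 with sh#1 and was lower with sh#2 (-0.23, SE 0.08, q = 0.0251), as was the small subunit TOMM5 (-0.24, SE 0.08, q = 0.0117). TOMM22, TOMM70 and the small subunit TOMM6 were higher in sh#1 than in sh#2 cells by 0.34, 0.34 and 0.36 (q = 0.00144, 0.0049 and 0.000826, edgeR). Of the calls against shCtrl, that of TOMM70 held in 10 of 14 alternatives (lost with DESeq2 and without shCtrl library 3 or sh#1 library 2 or 3), that of TOMM22 in 10 (lost with DESeq2 and without shCtrl library 2 or sh#2 library 2 or 3) and that of TOMM5 in 13 (lost without sh#2 library 3). The channel TOMM40 and the cytosolic co-chaperone TOMM34 passed in no cultured comparison. Of 8 tested TOM genes, 2 rose and 0 fell in CDH11 KD cells, against 9.12% and 8.32% of all genes, with a median of 0.09.

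In tumors the TOM rises were not seen. TOMM20 was at 156, 151, 184, 181 and 221 CPM in the shCtrl tumors, 211, 196, 160, 214 and 209 CPM in sh#1 and 206, 185, 150.4, 219 and 176 CPM in sh#2. Each hairpin overlapped shCtrl, with a joint log2 fold change of 0.11 (SE 0.11, q = 0.723, edgeR). TOMM7 spanned 122 to 252 CPM in shCtrl, 187 to 231 CPM in sh#1 and 142 to 174 CPM in sh#2 tumors, with a log2 fold change of -0.11 (SE 0.13, q = 0.804). TOMM40 was at 264, 270, 220, 265 and 230 CPM in the shCtrl tumors, at 186, 217, 212, 215 and 177 CPM in sh#1 and at 202, 214, 208, 196 and 212 CPM in sh#2. It was the only import gene whose 10 CDH11 KD tumors all lay below the 5 shCtrl tumors, and 0 lay above, against 0.316% and 0.261% of all genes. Its log2 fold change of -0.29 (SE 0.09) had a q value of 0.150 in edgeR, so it was not past the threshold, and it was the 1 import gene called by DESeq2. The CDH11 KD effect in tumors minus that in culture was -0.54 for TOMM20 (SE 0.15, q = 0.021), -0.54 for TOMM7 (SE 0.19, q = 0.0556) and -0.40 for TOMM40 (SE 0.15, q = 0.089) in the joint limma fit. The TOMM40 difference passed in 13 of 27 alternatives and the TOMM7 difference in 24 of 27.

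The import motor showed the largest rise in culture. GRPEL2 and GRPEL1 are nucleotide exchange factors that release the mitochondrial HSP70 motor from its cargo. GRPEL2 was at 26.0, 20.5 and 24.0 CPM in cultured shCtrl, 42.2, 46.9 and 44.03 CPM in sh#1 and 43.9, 38.2 and 46.3 CPM in sh#2. Every CDH11 KD library was above every shCtrl library, and the log2 fold change was 0.89 (SE 0.13, q = 0.000228), with 0.91 for sh#1 and 0.86 for sh#2 (edgeR). GRPEL1 was at 52.0, 47.6 and 51.4 CPM in shCtrl, 61.5, 72.2 and 68.3 CPM in sh#1 and 70.5, 58.8 and 55.5 CPM in sh#2. It also lay above shCtrl in all 6 libraries, with a smaller log2 fold change of 0.36 (SE 0.12, q = 0.0425), a call that held in 4 of 15 alternatives. With sh#1 alone GRPEL1 had 0.42 (q = 0.00602, edgeR), which held in 14 of 14 alternatives, and with sh#2 it did not pass in the main fit. TIMM44, the anchor of the motor, and PAM16, a regulator of it, passed in no cultured comparison of the main fits, with log2 fold changes of -0.17 and 0.11 in CDH11 KD cells. Some alternatives gained calls. GRPEL1 was higher with sh#2 without sh#1 library 2 or without sh#2 library 3. TIMM44 was lower with sh#2 with the replicate number as a block and without sh#1 library 3. PAM16 was higher in sh#1 than in sh#2 with upper quartile normalization and with at least 10 counts in every library, among others.

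In tumors GRPEL2 was at 57.0, 59.5, 53.6, 49.8 and 41.4 CPM in shCtrl, 41.6, 52.0, 49.9, 58.7 and 47.5 CPM in sh#1 and 41.2, 49.7, 48.8, 67.2 and 61.1 CPM in sh#2. These groups overlapped over nearly their whole range, with a log2 fold change of -0.02 (SE 0.14, q = 0.981, edgeR). The CDH11 KD effect in tumors minus that in culture was -0.93 (SE 0.19, q = 0.00134, limma), and this difference passed in 27 of 27 alternatives. GRPEL1 was at 46.5, 49.8, 84.4, 52.5 and 47.5 CPM in the shCtrl tumors, 103, 63.3, 63.6, 51.1 and 59.6 CPM in sh#1 and 29.9, 33.6, 51.7, 35.2 and 38.2 CPM in sh#2. The highest value was that of sh#1 tumor 1, the shallowest library, and 4 of 5 sh#2 tumors lay below every other tumor. GRPEL1 was the 1 import gene that differed between the hairpins in tumors, higher in sh#1 than in sh#2 by 0.76 (q = 0.0694, edgeR), in a comparison where 0.642% of tested genes were higher and 0.544% lower. It no longer passed without sh#1 tumor 1, 2, 3 or 5 or without sh#2 tumor 1, 2 or 4, and 14 of 21 alternatives kept it.

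**Figure D2:**
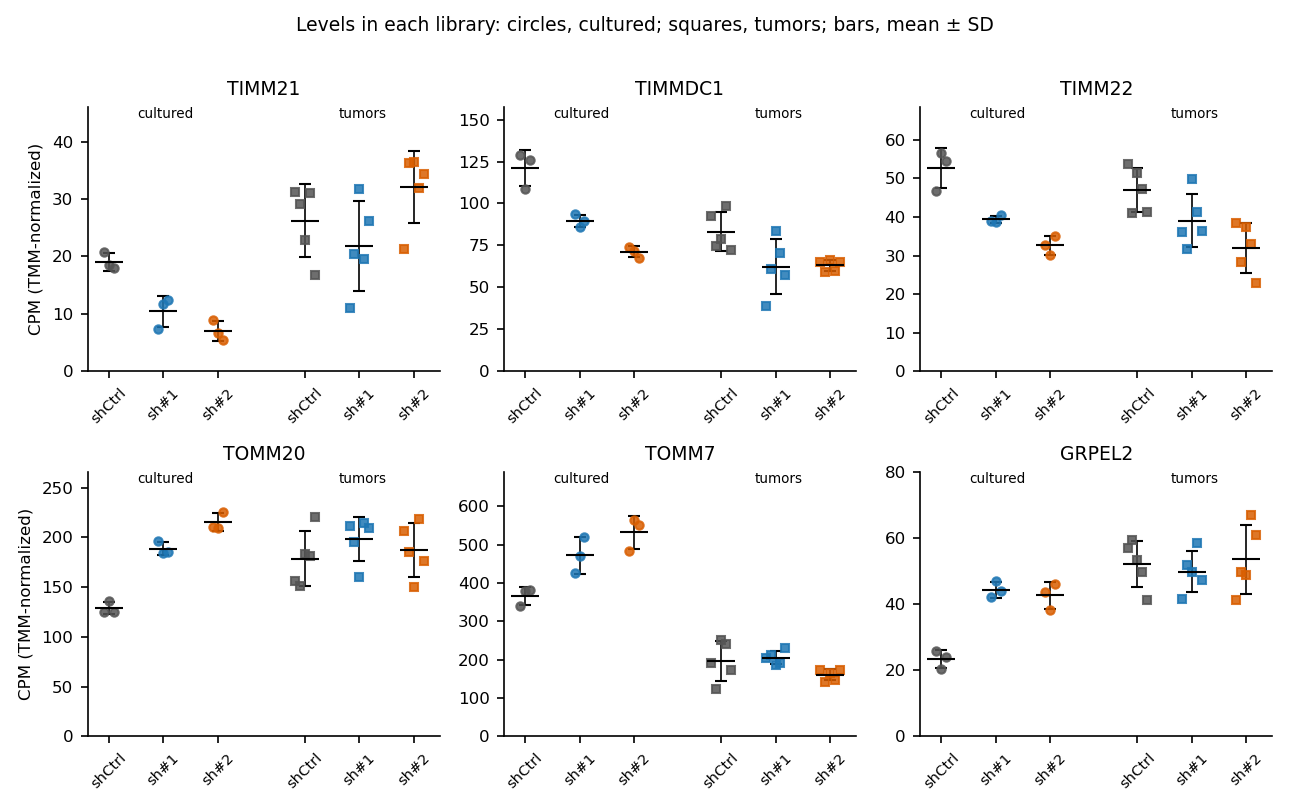
TMM-normalized CPM of TIMM21, TIMMDC1, TIMM22, TOMM20, TOMM7 and GRPEL2 in each cultured library (circles, 3 per group) and each tumor (squares, 5 per group), with the mean ± SD of the group. The 6 CDH11 KD libraries in culture lie on 1 side of the 3 shCtrl libraries for all 6 genes. In the tumors CDH11 KD overlaps shCtrl for each gene, although the sh#2 tumors alone lie below shCtrl for TIMM22 and TIMMDC1. Cultured and tumor values were normalized separately, so levels are not comparable between them.

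The assembly factor TIMMDC1 was lower in culture, while the insertase OXA1L was not. TIMMDC1, an assembly factor of complex I, was at 129, 109 and 126 CPM in shCtrl, 93.5, 86.1 and 89.5 CPM in sh#1 and 74.2, 71.7 and 67.7 CPM in sh#2. The 3 groups did not overlap, and the log2 fold changes were -0.43 (SE 0.09, q = 0.000286) with sh#1 and -0.77 (SE 0.10, q = 5.35e-09) with sh#2. The hairpins themselves differed by 0.33 (SE 0.10, q = 0.0129, edgeR), in 11 of 14 alternatives and not with DESeq2 or without sh#1 library 1 or sh#2 library 3. Exons of TIMMDC1 overlap those of CD80 on the opposite strand over 29.4% of their bases in GENCODE v44, and whether counting used strand is not given in the sources used here. OXA1L, which inserts proteins from the matrix side, was higher with sh#1 (0.27, SE 0.10, q = 0.0342) and at 0.20 with sh#2 (q = 0.111). The sh#1 call held in 8 of 14 alternatives and was lost with DESeq2, with upper quartile normalization and without shCtrl library 1 or 2 or sh#1 library 1 or 3.

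TIMM22, the channel that inserts carriers, was at 46.8, 56.6 and 54.5 CPM in cultured shCtrl, 39.0, 38.7 and 40.5 CPM in sh#1 and 32.7, 30.1 and 35.1 CPM in sh#2. These groups were also separate, with a log2 fold change of -0.54 (SE 0.13, q = 0.00753) in CDH11 KD cells, -0.42 with sh#1 and -0.69 with sh#2 (edgeR). Its partner TIMM29 was measured from 8 to 35 counts per cultured library and had a log2 fold change of 0.07 (SE 0.33). In tumors TIMM22 had a log2 fold change of -0.39 (SE 0.15, q = 0.259), TIMMDC1 of -0.40 (SE 0.13, q = 0.164) and the peptidase subunit PMPCA of -0.39 (SE 0.14, q = 0.212). These were the lowest values of the 29 genes there, none was past the threshold, and the 10 CDH11 KD tumors overlapped shCtrl for each. TIMM22 was at 53.8, 41.1, 51.3, 47.1 and 41.4 CPM in the shCtrl tumors, 36.1, 31.6, 49.9, 41.3 and 36.4 CPM in sh#1 and 38.4, 28.2, 37.4, 33.1 and 22.9 CPM in sh#2. All 5 sh#2 tumors lay below shCtrl, and 2 of the sh#1 tumors lay within it. TIMMDC1 was at 92.3, 74.6, 78.7, 98.7 and 72.0 CPM in the shCtrl tumors, 38.8, 61.0, 83.8, 70.7 and 57.6 CPM in sh#1 and 65.4, 59.1, 66.1, 59.8 and 64.9 CPM in sh#2. Here too the 5 sh#2 tumors lay below shCtrl, while sh#1 tumor 3 lay within it. The test of the difference between culture and tumors gave 0.17 (SE 0.18, q = 0.587) for TIMMDC1 and 0.12 (SE 0.20, q = 0.755) for TIMM22, which were not past the threshold.

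The processing peptidase cuts presequences in the matrix with a regulatory subunit, PMPCA, and a catalytic one, PMPCB. PMPCA was at 29.5, 32.8 and 34.3 CPM in cultured shCtrl, 29.5, 22.2 and 23.3 CPM in sh#1 and 12.1, 17.2 and 14.6 CPM in sh#2, so that sh#1 library 1 lay at the level of the lowest shCtrl library and the sh#2 libraries lay well below it. The fall was -1.14 (SE 0.18, q = 1.28e-06) with sh#2 and -0.37 (SE 0.16, q = 0.0919) with sh#1, and the hairpins differed by 0.77 (SE 0.19, q = 0.00194), the largest difference between them among these genes. With the hairpins joined, PMPCA had a log2 fold change of -0.68 (SE 0.21, q = 0.0311), past the threshold in 9 of 15 alternatives and not with the replicate block, without any single shCtrl library or without sh#2 library 2 or 3. PMPCB had 58.3, 59.5 and 57.2 CPM in shCtrl, 68.9, 66.1 and 62.4 CPM in sh#1 and 72.3, 66.9 and 69.6 CPM in sh#2. All 6 CDH11 KD libraries lay above shCtrl, but the log2 fold change of 0.21 (SE 0.10) was not past the threshold (q = 0.156, edgeR), and without the composition factor the mean was 104% of shCtrl.

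In cultured CDH11 KD cells 1 of 3 SAM genes and 1 of 7 relay genes fell, against 8.32% of all genes, and 0 rose, against 9.12%. SAMM50, the barrel that assembles outer membrane barrels, was at 43.7, 55.4 and 42.3 CPM in cultured shCtrl, 34.9, 42.6 and 37.3 CPM in sh#1 and 28.9, 30.1 and 31.7 CPM in sh#2. The sh#2 libraries lay below shCtrl and the sh#1 libraries overlapped it. Its log2 fold change was -0.45 (SE 0.14, q = 0.0376) in CDH11 KD cells and -0.64 (SE 0.15, q = 0.000356) with sh#2, with -0.30 (q = 0.105) for sh#1. The call in CDH11 KD held in 7 of 15 alternatives and was lost with DESeq2, with the replicate block and without any single shCtrl or sh#2 library. MTX1 and MTX2, its metaxin partners, passed in no comparison of the main fits, and MTX2 was called higher with sh#1 without sh#1 library 2. MTX2 had the highest CDH11 KD value of the 29 genes in tumors, 0.17 (SE 0.17, q = 0.725), at 54.6, 55.2, 25.1, 44.5 and 39.8 CPM in shCtrl, 44.4, 54.3, 47.7, 59.8 and 33.3 CPM in sh#1 and 51.2, 41.6, 56.5, 45.9 and 66.8 CPM in sh#2, and the groups overlapped. CHCHD4, the oxidoreductase that traps small proteins by disulfides, was at -0.36 (q = 0.0981) with sh#2 and higher in sh#1 than in sh#2 by 0.48 (SE 0.17, q = 0.0336, edgeR), which held in 9 of 14 alternatives and not with DESeq2 or without sh#1 library 2 or 3 or sh#2 library 1 or 2.

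Among the small TIMs, which chaperone hydrophobic precursors across the intermembrane space, TIMM8B was lower in culture. It was at 109, 108 and 99.5 CPM in shCtrl, 93.5, 93.5 and 88.1 CPM in sh#1 and 72.8, 71.2 and 79.4 CPM in sh#2, and the 3 groups did not overlap. The log2 fold change was -0.34 (SE 0.11, q = 0.0383) in CDH11 KD cells and -0.50 (SE 0.10, q = 3.82e-05) with sh#2. With sh#1 it did not pass, and the hairpins differed by 0.30 (q = 0.0232, edgeR), in 9 of 14 alternatives. The call in CDH11 KD held in 6 of 15 alternatives and was lost with DESeq2, with no filter on low counts, with the replicate block and without any single shCtrl or sh#2 library. Exons of TIMM8B overlap NKAPD1 on the opposite strand over 30.1% of their bases. TIMM10 fell with sh#2 to 60.2, 75.5 and 73.0 CPM, from 77.5, 89.8 and 100.2 CPM in shCtrl (-0.36, SE 0.11, q = 0.00704, lost without shCtrl library 3 or sh#2 library 1), and was higher in sh#1, at 93.5, 101 and 90.2 CPM, than in sh#2 by 0.45 (q = 0.00138, edgeR). TIMM8A, TIMM9, TIMM10B and TIMM13, as well as TIMM17B of the TIM23 channel, were not past the threshold in any comparison. In tumors all 7 relay genes had log2 fold changes below 0 in CDH11 KD, from -0.32 for TIMM10 to -0.05 for TIMM9. The median over all genes was 0.01, and the direction of the relay genes as a set was not tested. In edgeR 0 of 7 passed, where 0.697% of all genes were higher and 0.817% lower. At an unadjusted p under 0.05 there was 1 of 7, near the 12.7% of all genes, and DESeq2 called 0, against 1.79%.

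The test of whether the CDH11 KD effect differed between the systems covered 29 import genes among 8321 genes of both tables. It gave 1 gene with a higher effect in tumors, TIMM21, and 4 with a lower one, TOMM20, TOMM7, TOMM40 and GRPEL2, while 7.76% of all genes were higher and 7.15% lower (limma, q under 0.1). The 3 genes that rose most in culture, GRPEL2, TOMM20 and TOMM7, had tumor values of -0.02, 0.11 and -0.11. PMPCA, TIMM22 and TIMMDC1 had negative values in both systems, past the threshold in culture only, and their difference between systems did not pass.

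**Figure D3:**
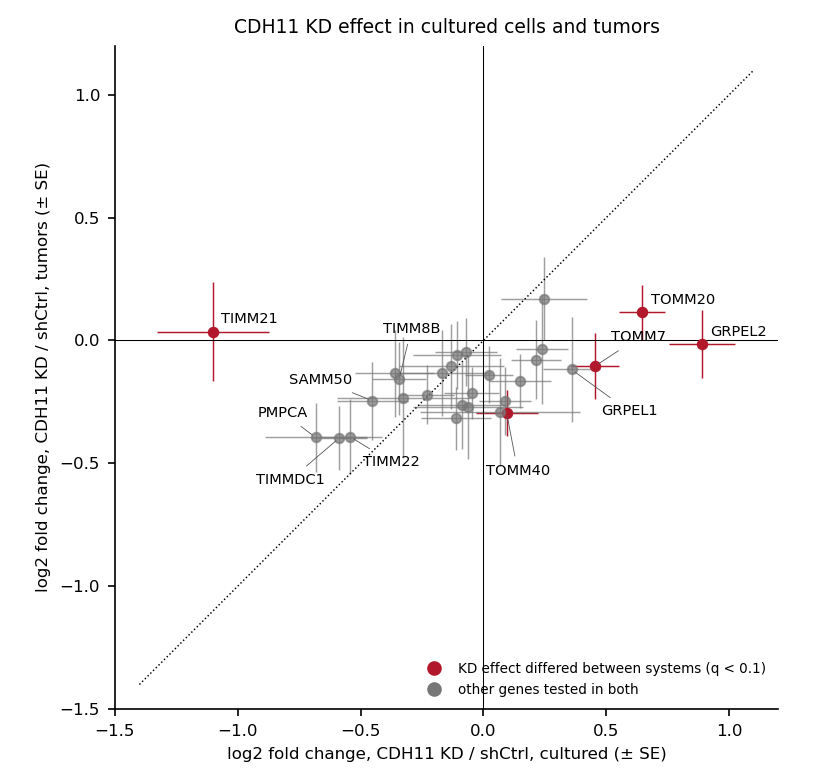
Log2 fold change of CDH11 KD against shCtrl (± SE) in cultured cells (x axis, n = 6 against 3) and tumors (y axis, n = 10 against 5) for the 29 import genes tested in both, with a dotted line where the effects are equal. Red marks the 5 genes whose effect differed between the systems in the joint limma fit. TIMM21 lies at -1.10 in culture and 0.04 in tumors, and GRPEL2 at 0.89 and -0.02.

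Paralogue pairs were set side by side as counts of the first gene per count of the second in the same library, which does not depend on scaling. No test was made, and since gene lengths differ the ratio is read across groups only. GRPEL2 per GRPEL1 was 0.5, 0.431 and 0.467 in cultured shCtrl, 0.687, 0.651 and 0.644 in sh#1 and 0.623, 0.650 and 0.833 in sh#2. All CDH11 KD libraries were above shCtrl. In tumors it was 0.975 ± 0.244 (SD, n = 5) in shCtrl, 0.791 ± 0.264 in sh#1 and 1.46 ± 0.351 in sh#2. TIMM17A per TIMM17B was 2.23 ± 0.379 (SD, n = 3) in cultured shCtrl, 2.29 ± 0.456 in sh#1 and 1.505 ± 0.433 in sh#2, and these ranges overlapped. TIMM8A per TIMM8B was 0.130 ± 0.00836, 0.145 ± 0.0279 and 0.157 ± 0.0543 in the same order, also overlapping. TOMM40L, a TOMM40 relative, had 0 to 5 counts per cultured library and 0 to 2 per tumor, so that TOMM40 was the form detected.

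**Figure D4:**
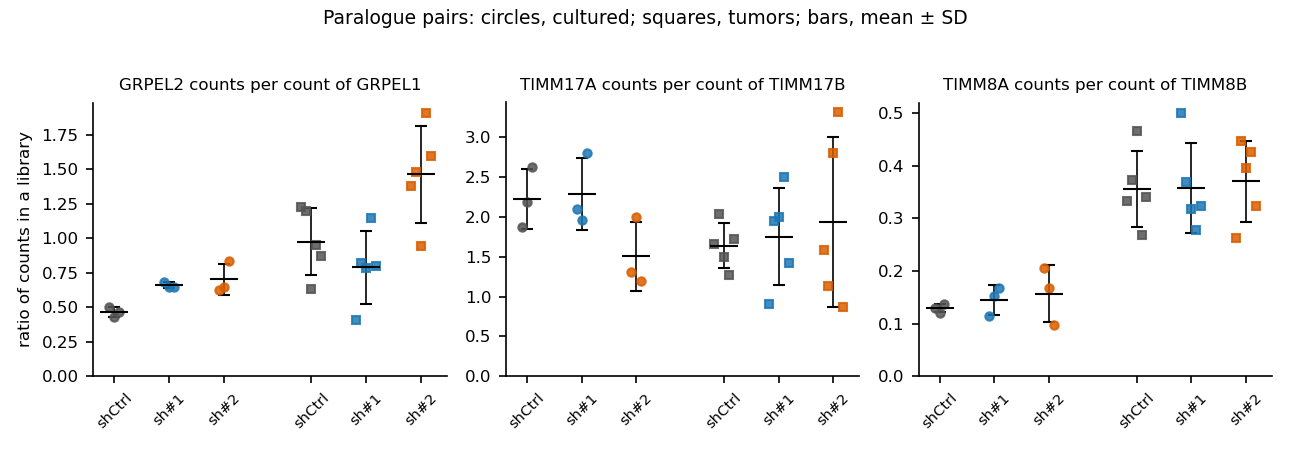
Counts of GRPEL2 per count of GRPEL1, TIMM17A per TIMM17B and TIMM8A per TIMM8B in each cultured library (circles, 3 per group) and tumor (squares, 5 per group), with the mean ± SD. GRPEL2 per GRPEL1 lies between 0.431 and 0.5 in cultured shCtrl and between 0.623 and 0.833 in the 6 CDH11 KD libraries.

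Several genes that were well counted in culture were nearly absent from the tumor table. TOMM5 had 313 to 522 counts per cultured library and 0 to 11 per tumor, MTX1 51 to 94 against 0 to 2, and PAM16 25 to 61 against 0 to 2, while TOMM6 is not among the listed human genes of the tumors and is not analysed there. In GENCODE v44 the exons of TOMM6 lie wholly (100.0%) within those of another gene on the same strand, ENSG00000124593. PAM16 shares 22.4% of its exonic bases with the CORO7-PAM16 readthrough on the same strand, and TOMM5 shares 9.4% and 14.4% with a pair of unnamed coding genes. MTX1 overlaps other genes on the opposite strand only. The mouse tables hold 21 counts of Mtx1 and 16 of Pam16 over all tumors, against 7 human MTX1 and 13 human PAM16 counts. The part of these overlaps in the low tumor counts was not tested.

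Host transcripts were a small share for most of these genes. Mouse orthologues of the tested genes made up from 0.598% (TIMM23) to 22.3% (TIMM10B) of the human and mouse counts together, with SAMM50 at 13.5%, TOMM70 at 12.8% and TIMM17A at 12.1%. The counts of all 32 listed mouse orthologues, tested or not, summed to 56.0 to 109 CPM of both species in shCtrl tumors, 55.8 to 245 in sh#1 and 47.1 to 149 in sh#2, highest in sh#1 tumor 1, which had the largest mouse share. As CPM of the mouse table alone the sums were 423 to 772, 320 to 815 and 364 to 831, highest in sh#2 tumor 3, and the groups overlapped on both scales. In sh#1 tumor 1 the 2 mouse adipocyte markers summed to 7354 CPM of the mouse table and the 3 skeletal muscle markers to 5298, against at most 364 and 1241 in shCtrl tumors and 1044 and 1122 in sh#2. Human leukocyte and endothelial markers, 4 genes each, summed to at most 3 counts per tumor. The 4 human fibroblast markers summed to 24 to 89 counts in shCtrl tumors, 7 to 73 in sh#1 and 36 to 136 in sh#2, against 0 to 4 per cultured library, and COL1A1 alone reached 132. Their part in the tumor values of the import genes was not tested.

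Other genes of the pathway were counted from fixed lists, with levels of change given for those past the threshold. Of 17 tested import genes outside the 34, HSPD1, the matrix chaperonin, rose in cultured CDH11 KD cells (0.27, q = 0.0485) and 0 fell, against 9.12% and 8.32% of all genes. The calls of genes outside the 34 were not repeated under the alternatives. With sh#1, 2 of the 17 rose and 0 fell, against 11.8% and 10.6% of all genes, and with sh#2 5 rose and 2 fell, against 19.5% and 18.8%. The chaperonin partner HSPE1 fell with sh#2 (-0.44, q = 3.21e-07) and was at 0.02 with sh#1, and the motor HSP70 itself, HSPA9, rose with sh#1 (0.42, q = 1.5e-06) and was at 0.04 with sh#2. The hairpins differed for each of them (0.46 and 0.38, q = 2.87e-07 and 1.55e-05, edgeR). ROMO1, a small inner membrane protein of the TIM23 complex, rose with sh#2 in culture (0.26, q = 0.00104) and fell with sh#2 in tumors (-0.47, q = 0.0645). The 6 tested factors of the MITRAC intermediate, which takes new complex IV subunits from TIMM21, passed in none of the comparisons, with 0 of 6 in edgeR for cultured CDH11 KD and 0 at an unadjusted p under 0.05, against 31.8% of all genes.

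Of 12 quality control genes, LONP1, the matrix protease, rose in cultured CDH11 KD cells (1.04, SE 0.20, q = 0.00321), by 0.70 with sh#1 and 1.33 with sh#2, and 0 fell, against 9.12% and 8.32% of all genes. With sh#1, 4 of the 12 rose (LONP1, STOML2, PARL and PHB2), against 11.8% of all genes, and with sh#2 1 rose and 2 fell, against 19.5% and 18.8%, the latter the proteases AFG3L2 (-0.42, q = 0.0115) and SPG7 (-0.46, q = 0.0437). In tumors LONP1 was at -0.14, and its effect there minus that in culture was -1.18 (q = 0.00167, limma). Of 8 MICOS genes, which shape cristae and contact SAM, IMMT, CHCHD3 and APOOL rose in cultured CDH11 KD cells (0.37, 0.31 and 0.39) and 0 fell, again against 9.12% and 8.32% of all genes. Of 9 tested carriers that enter through TIM22, the ADP/ATP carriers SLC25A5 and SLC25A6 rose in cultured CDH11 KD cells (0.34 and 0.34, q = 0.00956 and 0.00763, edgeR) and 0 fell, against the same shares. With the hairpins apart, 2 of the 9 carriers rose and 1 fell with each. Of all genes, 11.8% rose and 10.6% fell with sh#1, and 19.5% and 18.8% with sh#2. The lower ones were the citrate carrier SLC25A1 with sh#1 (-0.35, q = 0.0257) and the aspartate/glutamate carrier SLC25A13 with sh#2 (-0.73, q = 7.38e-05). In tumors 0 of the 11, 8 and 8 tested genes of these lists passed in CDH11 KD in edgeR, where 0.697% of all genes passed as higher and 0.817% as lower, and 1, 1 and 0 had an unadjusted p under 0.05, against 12.7% of all genes. MICOS13 was lower with sh#2 there (-0.42, q = 0.0807).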

How the data were processed

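RNA of 9 cultured UM-UC-3 libraries and 15 xenograft tumors was sequenced by the authors as 75 bp single reads and mapped to hg38 (trimming in CLC and mapping by RaNAseq in culture, Trim Galore and HISAT2 in tumors). The authors deposited raw counts per gene, with human and mouse genes of the tumors in separate tables. The counting program, its strand setting and the way reads were assigned to species are not given in the sources used here. From the counts, 13 cultured genes with no value were left out, genes with low counts were removed (filterByExpr), and CPM and tests were computed with edgeR 4.0.16 (TMM, robust quasi-likelihood fit), limma 3.58.1 for the difference between systems and DESeq2 1.42.0 as an alternative, in R 4.3.3. The q thresholds were those of the study (0.05 in culture and 0.1 in tumors), adjusted over all genes tested, but the fold change cut it also used for cultured cells was not applied, so smaller changes are called here. CDH11 KD fits had 2 groups and hairpin fits 3. Scripts were tested on simulated data, with 200 genes changed by 1 on the log2 scale. Of these, 89% to 98.5% were recovered. At q under 0.05, false calls were 2.59% for cultured CDH11 KD and 9.48%, above the threshold, for cultured sh#2. At q under 0.1 they were 7.98% to 9.22% for tumors and the difference between systems. The members and lists were chosen with earlier results of these data known. Named in full were TIMM21, members past a threshold against shCtrl, the 3 largest changes each way per system, paralogue pairs and small TIMs, and at most 3 genes per direction and list. TOMM40, CHCHD4, TOMM6 and the tumor genes named for low counts were chosen after their values were seen. Promoters came from RefSeq (31 of 34 members matched), gene positions and exons from GENCODE v44 on hg38 (GRCh38). Duplicate libraries were not found, since replicates differed beyond sampling noise.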

Additional observations from a re-analysis of the deposited data

Results flagged for a closer look

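In 4 of the 87 groups of 5 tumors examined, 1 tumor stood apart from the other 4 in the level of an import gene, and chance alone flags about 1 group in 20. TIMM10 was at 54.4 CPM in sh#2 tumor 4, against 73.9 to 81.0 CPM in the other sh#2 tumors. GRPEL1 was at 84.4 CPM in shCtrl tumor 3, against 46.5 to 52.5 CPM, and at 103 CPM in sh#1 tumor 1, against 51.1 to 63.6 CPM. OXA1L was at 366 CPM in sh#2 tumor 4, against 145 to 179 CPM in the other sh#2 tumors.

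The CDH11 KD effect differed between the systems for 5 of 29 import genes in the joint limma fit, 1 with a higher and 4 with a lower effect in tumors, against 7.76% and 7.15% of all 8321 genes. Tumor minus cultured, the log2 difference was 1.12 for TIMM21, -0.93 for GRPEL2, -0.54 for TOMM20, -0.54 for TOMM7 and -0.40 for TOMM40. Sequencer, mapping and tissue differed together with the system and cannot be told apart from it.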

How the results depend on the processing

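In cultured CDH11 KD cells 10 import genes passed. With the replicate number as a replicate block the count was 6, and with 1 library left out it ranged from 5 to 10, with 6, 5 and 6 without shCtrl library 1, 2 and 3. Over the 6 alternatives that kept all libraries it was 6 to 13, with 7 by DESeq2 and 13 in a fit of 3 groups with the hairpins averaged. TOMM20, TOMM7, GRPEL2, TIMM21 and TIMMDC1 passed in 15 of 15 alternatives and TIMM22 in 14, while PMPCA passed in 9, SAMM50 in 7, TIMM8B in 6 and GRPEL1 in 4. Correlations of deviations from the group means were small and do not settle whether the numbers pair the libraries. Between same-numbered cultured libraries they were -0.01 to 0.06 (median 0.02), against -0.06 to 0.04 (median -0.01) with different numbers. Between same-numbered tumors they were -0.10 to 0.13 (median -0.01), against -0.19 to 0.19 (median 0.01). Under the replicate block 9, 16 and 10 genes passed for sh#1, sh#2 and sh#1 against sh#2 in culture. Of the 10, 9 were higher in sh#1 and 1, TOMM7, was lower. TIMM21 in culture ranged from -1.24 to -0.9999 with 1 library left out.

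In tumors 0 genes passed for CDH11 KD, 1 with DESeq2 (TOMM40), and 0 to 4 with 1 tumor left out, the 4 being TOMM40, TIMM50, PMPCA and TIMMDC1 without shCtrl tumor 5. For sh#2 the count of 0 became 1 with at least 10 counts in every library (TIMM22) and 1 with the mouse to human ratio as a covariate (GRPEL1), and was 0 to 3 with 1 tumor left out, highest without shCtrl tumor 5 (TIMM22, GRPEL1 and TIMMDC1) and 1 without sh#2 tumor 3 (GRPEL1). Between the hairpins it was 0 to 1. TIMM21 ranged from -0.070 to 0.10 (main value 0.04), with reversed signs without shCtrl tumor 3 (-0.02), shCtrl tumor 5 (-0.070), sh#2 tumor 2 (-0.02) and sh#2 tumor 3 (-0.03), and was at 0.0075 with the replicate block. The difference between systems held for 3 to 7 genes with 1 library left out, 3 without cultured shCtrl library 1 or tumor shCtrl 4. TIMM21 could not be fitted there under the minimum of 10 counts. The cause of these changes was not tested. Low counts limit the tumor values of TIMM21, among others (4 to 39 counts per tumor).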
